A study of Homo sapiens with 38 samples.

Results

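Diagenode C15410196, an antibody against H3K27ac, was sequenced at the dilutions 1:50 and 1:100, and the 4 libraries compared here, of 38 in the series, are the 2 at each dilution that can be matched by treatment. They were chosen from the labels as the Diagenode libraries with 15 PCR cycles, SDS-based DNA release and no replicate number, 1 at each dilution without TSA and 1 at each dilution with TSA. All 4 libraries, and the benchmark libraries used below to read out their regions, are CUT&Tag experiments on K562, an established human leukemia cell line with erythroid features. TSA (trichostatin A) is an inhibitor of histone deacetylases, the enzymes that remove acetyl groups from histones. The material is 8 peak lists with 72613 peaks, 1 list from MACS2 and 1 from SEACR for each library, on hg19. With 1 library for each dilution and treatment there is no replicate of any condition, so the comparison of the dilutions themselves carries no test and describes these libraries. The lists with TSA were made from downsampled reads according to the submitters' naming, and those without TSA were not, so levels were compared within a pair and not between the pairs.

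H3K27ac, acetylation of lysine 27 of histone H3, marks active promoters and enhancers. In CUT&Tag the primary antibody brings a transposase to the chromatin that carries the mark, and the transposase cuts and tags the DNA there, so that the amount of antibody is one of the settings that decide how much of the mark is sampled. In erythroid cells the mark is found at the genes of hemoglobin, heme synthesis and iron uptake and at the enhancers bound by GATA1 and TAL1, among them the upstream control region of the β-globin genes.

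Among the places called at 1:50 and not at 1:100 in both pairs are the promoters of COX8A, a subunit of cytochrome c oxidase, and KDM1A, a histone H3 demethylase. They also include distal regions near NAIF1 and near TFRC, the transferrin receptor gene, and others made of short repeats. The sequences below are 121 bp of the GRCh37 reference, from 100 bases before to 20 after a start site, or 60 bases either side of a MACS2 summit for distal regions. They show what the members look like. Capitals mark a match on either strand to 1 of 4 short motifs. These are CCGGAA, the core recognized by ETS factors, then GGGCGG for the SP and KLF factors, then TGANTCA for the AP-1 family, and AGATAA for the GATA factors. In the last sequence alone they mark each copy of the pentamer GGAAT.
COX8A start site, chr11:63741992-63742112, plus strand: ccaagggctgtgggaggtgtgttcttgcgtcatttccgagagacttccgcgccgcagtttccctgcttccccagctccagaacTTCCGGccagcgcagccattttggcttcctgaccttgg
KDM1A start site, chr1:23345836-23345956, plus strand: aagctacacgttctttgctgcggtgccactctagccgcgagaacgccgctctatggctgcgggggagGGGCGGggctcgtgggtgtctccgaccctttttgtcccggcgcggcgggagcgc
distal region nearest NAIF1, chr9:130843531-130843651, plus strand: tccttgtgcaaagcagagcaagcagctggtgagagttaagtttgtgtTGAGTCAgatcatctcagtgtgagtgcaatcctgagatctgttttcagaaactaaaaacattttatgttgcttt
distal region nearest TFRC, chr3:195867198-195867318, plus strand: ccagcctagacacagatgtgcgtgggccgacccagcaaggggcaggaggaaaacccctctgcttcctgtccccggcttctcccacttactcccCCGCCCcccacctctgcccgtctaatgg
distal region nearest EDEM1, chr3:5281031-5281151, plus strand: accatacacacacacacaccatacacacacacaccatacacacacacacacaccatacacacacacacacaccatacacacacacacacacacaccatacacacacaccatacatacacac
distal region nearest LINC00999, chr10:39121380-39121500, plus strand: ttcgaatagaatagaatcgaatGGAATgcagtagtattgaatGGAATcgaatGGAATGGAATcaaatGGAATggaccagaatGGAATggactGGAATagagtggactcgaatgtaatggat
A match is a description of the letters and not evidence that a factor is bound. COX8A held 1 ETS match and KDM1A and the region near TFRC 1 SP/KLF match each. The region near NAIF1, in an intron of SLC25A25, held 1 AP-1 match. The region near EDEM1 consisted mostly of CA repeats, and the region near LINC00999 held 7 copies of GGAAT in the printed window.

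Without TSA, the 1:50 library had 21220 MACS2 peaks and the 1:100 library 7677, a ratio of 2.76 (log2 1.47). SEACR listed 11883 and 7882, a ratio of 1.51 (log2 0.59). With TSA the callers went opposite ways: MACS2 listed 5148 peaks at 1:50 and 7972 at 1:100 (log2 -0.63), and SEACR listed 6352 and 4479 (log2 0.50). The longer list of the pair was thus the 1:50 list in 3 of the 4 comparisons. The background that MACS2 used, in fragments per base, was 0.234 at 1:50 and 0.102 at 1:100 without TSA and 0.0663 and 0.0472 with TSA, so the background coverage at 1:50 was 2.28 and 1.40 times that at 1:100. Depth and dilution cannot be told apart within a pair.

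Peaks of a pair were merged into regions where they overlapped by at least 1 bp. Without TSA, MACS2 gave 5851 regions at both dilutions, 15316 only at 1:50 and 828 only at 1:100, and of the 1:100 peaks 89.2% lay in the 1:50 list. SEACR gave 6336, 5533 and 846, and 89.3% of the 1:100 peaks lay in the 1:50 list. The 1:50 lists without TSA therefore held nearly all of the 1:100 lists. With TSA, MACS2 gave 2701 regions at both, 2280 only at 1:50 and 5078 only at 1:100, and SEACR gave 3005, 3201 and 1295. Only 36.3% of the 1:100 MACS2 peaks and 71.1% of the 1:100 SEACR peaks lay in the 1:50 lists there.

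**Figure D1:**
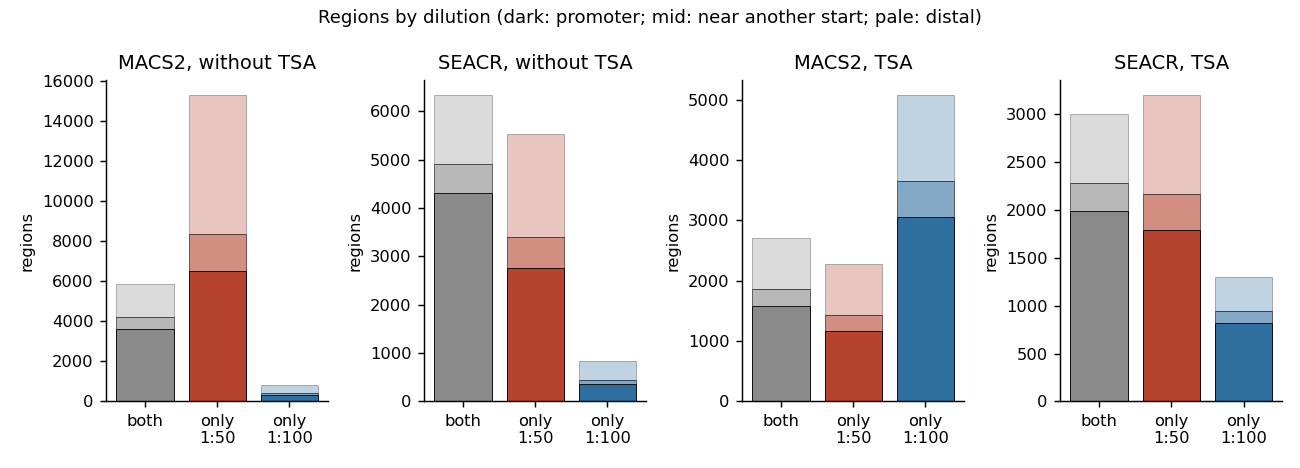
Number of merged regions at both dilutions, only at 1:50 and only at 1:100, for each caller and pair, divided into regions at a promoter, near another annotated start and distal (dark to pale), with a vertical scale of its own in each panel. Regions only at 1:50 outnumber those only at 1:100 in 3 panels, and the MACS2 lists with TSA go the other way, with 2280 against 5078.

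When each pair of lists was cut to equal length by rank, the excess without TSA shrank to 3331 regions only at 1:50 against 2387 only at 1:100 for MACS2 and to 2419 against 1730 for SEACR. With TSA the counts at equal length were 2746 against 2778 and 1816 against 1724. With a stricter q-value, a -log10 q of at least 10, the log2 ratio of MACS2 peak numbers with TSA turned from -0.63 to 0.12, and without TSA it was 1.93.

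Regions found only at 1:50 were lower and narrower than those found at both dilutions. Fragments at the summit of MACS2 peaks are whole counts that can be recovered from the fold column of the lists. Without TSA, the 1:50 peaks that overlapped a 1:100 peak had a median of 17 fragments at the summit and a width of 1116 bp, and the 15316 that did not had 10 fragments and 437 bp. With TSA the medians were 8 fragments and 363.5 bp against 7 fragments and 239 bp. The lowest peak of the 1:100 list without TSA had 5 fragments. Scaled down by the ratio of the backgrounds, 33.2% of the peaks listed only at 1:50 without TSA would reach it, and with TSA 87.2% would reach the lowest 1:100 peak, of 4 fragments. The other peaks gained without TSA were lower than any peak of the shallower list once scaled to its depth.

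**Figure D2:**
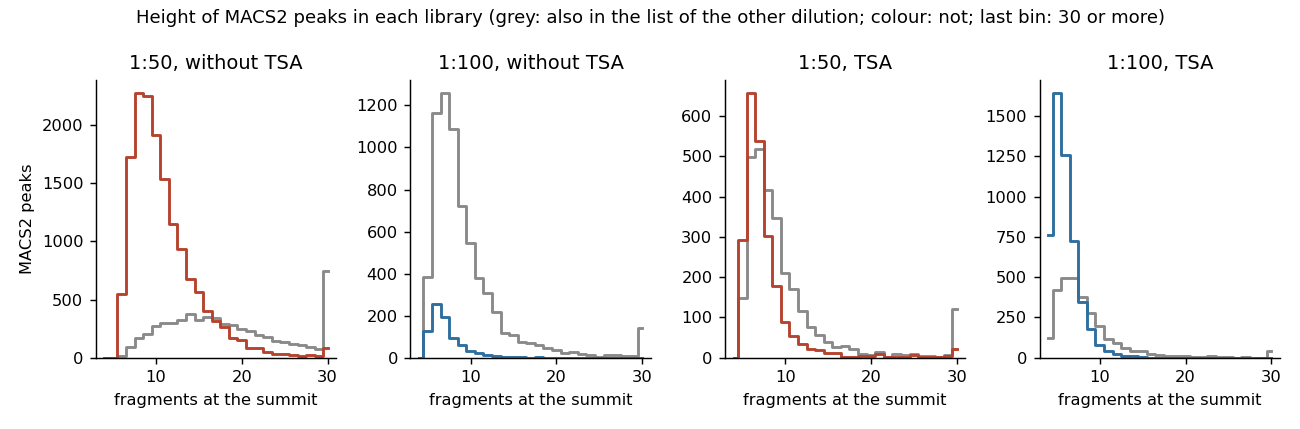
Number of MACS2 peaks (vertical, own scale in each panel) by fragments at the summit (horizontal, last bin 30 or more) in each of the 4 libraries, in gray for peaks overlapping the list of the other dilution and in color for the rest. In the 1:50 library without TSA the peaks not in the other list have a median of 10 fragments and the shared peaks of 17. In the TSA pair the peaks not in the other list also lie lower. Their medians are 7 against 8 for shared peaks at 1:50, and 6 against 7 at 1:100.

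In the regions called at both dilutions, the count at 1:50 was higher, and lower once divided by the genome-wide background coverage. That background is a single value for each library, so the division scales for depth and does not measure noise. The regions also had to be in the 1:100 lists, whose lowest peaks had 5 fragments without TSA and 4 with TSA. Without TSA, the median was 17 fragments at 1:50 and 8 at 1:100, and the median difference in MACS2 fold was 0.76 on the log2 scale (quartiles 0.42 and 1.12), with 92.9% of 5851 regions higher at 1:50. Divided by the background instead, the median difference was -0.19 and 37.7% of the regions were higher at 1:50. With TSA the medians were 8 and 7 fragments, the fold differed by 0.17 (quartiles -0.20 and 0.46) with 57.5% of 2701 regions higher at 1:50, and over background the median difference was -0.27.

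Promoters made up a smaller part of the regions gained at 1:50 than of those found at both dilutions. A promoter reaches here 1500 bp to each side of a gene's outermost start in the annotation, and a distal region lies over 1500 bp from any annotated start. Without TSA, 42.5% of the MACS2 regions only at 1:50 lay at a promoter (95% exact interval 41.7 to 43.3) and 45.4% were distal, against 62.0% and 28.0% of the regions at both. SEACR gave 49.9% at a promoter only at 1:50 (48.6 to 51.3) against 67.9% at both. With TSA the shares were 51.3% (49.2 to 53.4) against 58.4% for MACS2 and 56.1% (54.3 to 57.8) against 66.1% for SEACR. All intervals cover counting error only. An overlap of 1 bp with the promoter sufficed, and the regions at both dilutions were wider than those only at 1:50. Their median widths without TSA were 1161 against 437 bp by MACS2 and 2728 against 1950 bp by SEACR. With TSA they were 615 against 239 bp and 1657 against 968 bp. The part of width in the shares was not tested. By MACS2, regions only at 1:100 had the lowest promoter share of the 3 classes without TSA, 37.3% (34.0 to 40.7), and the highest with TSA, 60.2% (58.8 to 61.6), so the direction of the comparison with 1:100 depended on the pair. Of the 6956 distal MACS2 regions only at 1:50 without TSA, 63.0% lay in introns, 4.56% in exons and 32.4% between genes.

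Most regions gained at 1:50 without TSA were in neither list of the TSA pair. Of the 15316 MACS2 regions only at 1:50 without TSA, 3.96% were only at 1:50 with TSA too, 11.1% were only at 1:100 there and 81.5% were in neither TSA list. The 828 regions only at 1:100 without TSA had like shares, 3.62% only at 1:50 with TSA and 87.9% in neither TSA list. For the regions at both dilutions without TSA these were 9.4% and 31.7%. Of the 2280 regions only at 1:50 with TSA, 50.3% were also only at 1:50 without TSA and 38.0% were at both dilutions there. Of the 5078 regions only at 1:100 with TSA, 49.5% were only at 1:50 without TSA, a like share. In SEACR, 13.2% of 5533 regions only at 1:50 without TSA were only at 1:50 with TSA, a larger share than in MACS2. The share was 9.22% for SEACR regions only at 1:100 without TSA and 22% for those at both.

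Of 20163 protein-coding promoters, MACS2 called 7607 at 1:50 and 3652 at 1:100 without TSA, and 4080 (20.2% of all) were called only at 1:50 and 125 (0.62%) only at 1:100. SEACR called 2699 (13.4%) only at 1:50 and 294 (1.46%) only at 1:100. With TSA, MACS2 called 518 (2.57%) only at 1:50 and 2043 (10.1%) only at 1:100, and SEACR 1557 (7.72%) and 766 (3.8%). Promoters of lncRNA genes showed the same order, with 1496 of 18702 only at 1:50 and 45 only at 1:100 by MACS2 without TSA, and 211 and 719 with TSA. A core of 1116 promoters (5.53%) was in all 8 lists, and 11876 (58.9%) were in none.

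Taking both pairs and both callers together, 91 protein-coding promoters (0.451%) had a peak in all 4 lists at 1:50 and in none at 1:100, and 3 (0.0149%) the reverse. The 91 had 7 to 55 fragments at the summit at 1:50 without TSA, with a median of 13. With TSA they had 5 to 9, with a median of 7. Over all MACS2 peaks of the same libraries the medians were 11 and 7. The 1116 promoters of all 8 lists had medians of 22.5 and 8 in the same libraries. In the benchmark series, deeper H3K27ac libraries that played no part in the choice, 84 of the 91 had a MACS2 peak in all 6 libraries, 6 in 3 to 5 and 1 in 1 or 2, and none was without one. All 1116 core promoters had a peak in each of the 6. The share over all protein-coding promoters is not given here, so the 84 have no base share beside them. In each of the 2 benchmark libraries of the repressive mark H3K27me3, 4.4% of the 91 had a peak, against 15.7% and 8.6% of the 1116 core promoters and 39.3% and 35.7% of those in no list. The median MACS2 fold of the 91 in a benchmark library was 13.1 to 29.2. The promoters of all 8 lists had 24 to 55.4 there, and of the promoters in no list 7.21% to 17.6% had a benchmark peak at all. By the starts of the Ensembl canonical transcripts instead, 95 promoters of 19881 (0.478%) were only at 1:50 and 3 only at 1:100, and 75 of them were among the 91.

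Of the 91, COX8A (chr11, start 63742092) had 15 fragments at 1:50 without TSA and 9 with TSA, and no peak at 1:100. ZFR, an RNA-binding zinc finger protein, had 16 and 9, RUSF1 18 and 9 and RCC1L, a mitochondrial protein, 13 and 9. CALM3, a calmodulin gene, and PTP4A3, a tyrosine phosphatase, both had 17 fragments without TSA and 8 with it. All of these were in the 6 benchmark libraries, where COX8A had MACS2 folds of 18.2 to 61.5 and CALM3 of 24.0 to 70.0.

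KDM1A (chr1, start 23345936), which demethylates histone H3 and works with the erythroid repressor GFI1B, had 13 fragments at 1:50 without TSA, 8 with TSA and no peak in either 1:100 library. TEX46 starts on the other strand in the same window and owes its place in the list to that peak, since its canonical start was in none of the 8 lists. APOBEC3C, a cytidine deaminase, had 18 and 8 fragments, and ENSG00000284554, which overlaps it, the same peak. LIMS4 and ENSG00000257207 share 1 start site in a duplicated segment on chromosome 2, so their 23 and 8 fragments are uncertain in origin, and they were absent from 1 benchmark library and marked by H3K27me3 in both. SLC10A3, a solute carrier family member, had 10 and 8, PPP1R16A, a regulatory subunit of protein phosphatase 1, had 13 and 8, and IQANK1 had 11 and 8. ST6GALNAC6, a sialyltransferase, had 16 and 8 at the outermost start, but its canonical start lies 5805 bp away and was in none of the 8 lists.

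Other members, picked from the 91 after their values were seen, were MRPL28, a protein of the mitochondrial ribosome, with 55 fragments at 1:50 without TSA and 7 with TSA, the largest count of the set. The transcription factor CEBPB had 12 and 7, the kinase LYN 13 and 7, the mitochondrial channel VDAC1 12 and 7, the ribosomal protein gene RPS2 11 and 7 and the glycolytic gene PKM 8 and 7. PKM was seen in 5 of 6 benchmark libraries, at folds of 6.54 to 12.5, and CEBPB in all 6, at 25.6 to 83.4. Several members have outermost starts close to each other and hence share a peak, such as MAP2K1 and TIPIN, PGAM1 and RRP12, GEMIN7 and MARK4, and SMG5 and TMEM79, so the 91 promoters are fewer than 91 separate places.

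The 3 promoters only at 1:100 were TMEM208, with 8 fragments at 1:100 without TSA and 6 with TSA, MOSPD3, with 8 and 5, and TAF6L, a subunit of acetyltransferase complexes, with 10 and 5. Each had a peak in 5 or 6 benchmark libraries, at folds of 7.67 to 13.1 for TMEM208, 7.27 to 17.3 for MOSPD3 and 10.9 to 25.0 for TAF6L.

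The number 91 leaned on the depth and the length of the lists. With lists of equal length 40 promoters were only at 1:50 and 26 only at 1:100, and with fragments scaled to the shallower background, an alternative added after the data were seen, 52 were only at 1:50. The TSA pair alone gave 395 only at 1:50 and 590 only at 1:100, the reverse of 2219 and 65 in the pair without TSA.

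Away from promoters, 81 distal MACS2 regions met the same rule, against 5 the other way. They lay a median of 48554 bp from the nearest protein-coding start, 51 in introns, 5 in exons and 25 between genes, with 6 to 44 fragments at the summit without TSA (median 14) and 5 to 25 with TSA (median 7). Of the 81, 59 had a peak in all 6 benchmark H3K27ac libraries, 10 in 1 to 5 and 12 in none. The share without a benchmark peak was thus larger than among the promoters, of which none lacked one. An H3K27me3 peak overlapped 5 of the 81.

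The 10 regions with the highest values fell into contrasting kinds. The regions in all 6 benchmark libraries were the one printed above near NAIF1 (14 fragments without TSA and 11 with TSA), one 70842 bp from CITED2, a transcriptional coregulator (13 and 10), and introns of XXYLT1 (23 and 9) and EDEM2 (20 and 9). The regions in no benchmark library were 3 on chromosome Y, with 44 and 25, 34 and 14, and 13 and 10 fragments, and 1 near LINC00999 on chromosome 10, with 23 and 21. The remaining regions, near EDEM1 (18 and 11) and CWH43 (11 and 11), had a peak in 2 and 3 benchmark libraries and in both H3K27me3 libraries. The 3 of highest lower fold were thus regions that the benchmark libraries lacked.

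The 4 without a benchmark peak shared a sequence feature. Each held a repeat of the pentamer GGAAT, at least 5 copies on either strand in 201 bp around the summit, like that printed for LINC00999. Over all 81 regions, 8 held such a repeat, with 13 to 44 fragments without TSA and 6 to 25 with TSA, and none of the 8 had a benchmark peak. Of the other 73, 59 were in all 6 benchmark libraries and 4 in none. Copies of such a repeat are alike across the genome, so the place of these reads is uncertain, and blacklisted regions were not removed from the lists.

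Over all distal peaks of a library, the order of the dilutions in the share with the repeat was not the same in the pairs. In the MACS2 lists, 2.76% of 8587 distal peaks at 1:50 without TSA held the repeat (95% exact interval 2.42 to 3.13), 6.62% of 2464 at 1:100 (5.67 to 7.67), 12.3% of 1727 at 1:50 with TSA (10.8 to 14) and 6.0% of 2349 at 1:100 with TSA (5.08 to 7.04). The 1:50 library had the lower share without TSA and the higher with TSA. In the benchmark libraries the share was 0.134% to 1.07%. Among distal regions only at 1:50, 2.13% held the repeat without TSA (1.8 to 2.5) and 13.4% with TSA (11.2 to 15.9). Among those only at 1:100 it was 1.43% (0.527 to 3.09) and 0.633% (0.29 to 1.2). In regions called at a single dilution the share was thus higher at 1:50 with TSA. Without TSA the interval at 1:100 held the share at 1:50. Among distal regions at both dilutions it was 5.4% without TSA and 11.3% with TSA.

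Another 4 of the 81 regions are named here by their nearest gene, chosen after their values were seen. HEMGN, an erythroid nuclear protein, had one in an intron with 16 fragments without TSA and 8 with TSA. LDB1, a partner of GATA1 and TAL1 in enhancer looping, had one in an intron with 17 and 5. TFRC was the nearest gene to the region printed above, 58234 bp away, with 12 and 6. COX4I2, a positive control gene of the study, had one 24429 bp from its start with 14 and 7. Each of the 4 had a peak in all 6 benchmark libraries and no MACS2 or SEACR peak at 1:100.

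The 5 distal regions only at 1:100 were nearest to LINS1 (11 fragments without TSA and 7 with TSA), SNRPB (9 and 7), ANO9 (8 and 6) and FCGR2A, with 2 regions (6 and 8, and 5 and 5). They had a peak in 1, 0, 6, 6 and 5 benchmark libraries, in that order.

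In base composition the promoters only at 1:50 were like the core promoters. In 201 bp around the start, the 91 had a median GC content of 68.2% and 20 CpG dinucleotides, against 65.2% and 17 for the 1116 in all 8 lists and 63.2% and 14 for 20141 protein-coding starts. CCGGAA was present in 27.5% of the 91 (95% exact interval 18.6 to 37.8), in 22.3% of the core and in 16.0% of all starts. GGGCGG was present in 57.1%, 57.7% and 46.7%, and AGATAA in 1.1%, 2.69% and 4.57%. The interval of the 91 held the share of the core for these 3 motifs, and it held the share of all starts for GGGCGG (46.3 to 67.5) and AGATAA (0.0278 to 5.97) but not for CCGGAA.

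At distal summits AGATAA was present in 12.9% of 6944 windows only at 1:50 without TSA (12.2 to 13.8), in 15.2% of those at both (13.5 to 17.0) and in 8.11% of 419 only at 1:100 (5.68 to 11.2). TGANTCA was present in 9.84%, 10.9% and 6.68%. With TSA the regions only at 1:100 had the higher shares, with 14.6% against 10.8% only at 1:50 for AGATAA and 14% against 6.66% for TGANTCA. Of the 69 distal regions that were only at 1:50 in both pairs and had a benchmark peak, 15.9% held AGATAA (8.24 to 26.7). The order of the dilutions in these motifs was therefore not the same in the pairs.

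Promoters of erythroid transcription factors were mostly called at both dilutions. GATA1 had 25, 8, 12 and 6 fragments in the libraries 1:50 and 1:100 without TSA and 1:50 and 1:100 with TSA, in that order. TAL1 had 34, 9, 12 and 11, and KLF1, the erythroid Krüppel-like factor, 33, 7, 15 and 10. All 3 were in all 8 lists. With TSA the higher count was not always at 1:50, since NFE2 had 8 fragments at 1:50 and 11 at 1:100 and KLF3 6 and 8. Of 15 erythroid transcription factors, 10 were called by MACS2 at both dilutions without TSA, and GFI1B, LDB1 and MYB only at 1:50. That is 20% of the list, beside 20.2% of all protein-coding promoters. With TSA 9 were at both, 1 only at 1:50 and 1 only at 1:100. GFI1B had 12 fragments at 1:50 without TSA and no MACS2 peak in the other 3 libraries. Of 12 genes of heme synthesis, 9 were at both dilutions without TSA and none only at 1:50, whereas with TSA 5 were at both, 1 (FECH, the last enzyme of the pathway) only at 1:50 and 2 only at 1:100. Over all protein-coding promoters with TSA, MACS2 gave 2.57% only at 1:50 and 10.1% only at 1:100.

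The markers of other lineages were near absent. Of the T cell markers, CD3D and CD3G had a SEACR peak at 1:50 without TSA, with a highest coverage of 8 fragments, and none of the 7 had a MACS2 peak in any library. No marker of B cells (6 genes), liver (7) or neurons (7) had a peak in any of the 8 lists. The positive control ZMYND8 was in all 8 lists, with 35, 13, 20 and 11 fragments in the order given above, and the promoters of ARHGAP22 and COX4I2 and of the negative controls KLHL11 and SIGIRR were in none.

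By MACS2, the genes of DNA replication had the largest share of any list called only at 1:50 without TSA, whereas by SEACR their 33.3% was below the globin (40%) and histone deacetylase (36.4%) genes. Of these 18 genes, MACS2 called 4 at both dilutions and 10 (55.6%) only at 1:50, beside 20.2% of all protein-coding promoters, and SEACR 8 and 6. The 10 were MCM3, MCM5, MCM6 and MCM7, subunits of the replicative helicase, the clamp PCNA, the licensing factor CDT1, GINS2, RRM1, RRM2 and FEN1, with 8 to 17 fragments at 1:50. The same 10 were named by canonical starts. With TSA the list gave 3 at both, 3 only at 1:50 (16.7%, beside 2.57% of all) and 4 only at 1:100 (22.2%, beside 10.1%) by MACS2. SEACR with TSA gave 4 at both, 5 only at 1:50 (27.8%, beside 7.72%) and 0 only at 1:100. CDT1 was called at 1:50 in both pairs by MACS2, with 12 and 7 fragments, and had only a SEACR peak at 1:100 without TSA. MACS2 called 14 of the 18 at 1:50 without TSA at all, beside 37.7% of all protein-coding promoters.

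Of 15 genes of the MYC network, 4 were at both and 6 (40.0%, beside 20.2% of all promoters) only at 1:50 by MACS2 without TSA, and with TSA 1 was at both, none only at 1:50 (beside 2.57%) and 4 only at 1:100 (26.7%, beside 10.1%). SEACR with TSA gave 3 at both, 3 (20%, beside 7.72%) only at 1:50 and 1 (6.67%, beside 3.8%) only at 1:100. By canonical starts, of 14 genes, 6 were at both and 7 only at 1:50 without TSA. Of 17 genes of JAK-STAT and BCR-ABL signaling, the fusion kinase that drives this line and its effectors, 12 were at both and 3 (17.6%) only at 1:50 without TSA, and 4 were at both, 6 (35.3%) only at 1:50 and 3 only at 1:100 with TSA. That was the highest share of any list only at 1:50 in the TSA pair by MACS2, beside 2.57% of all promoters, and by canonical starts the 6 became 4 (STAT5A, EPOR, CISH and BCL2L1). By SEACR with TSA, 4 of the 17 (23.5%, beside 7.72%) were only at 1:50. That was below the deacetylase (45.5%), replication (27.8%) and acetyltransferase (25%) genes. STAT5A, STAT5B and BCL2L1, of the 6, had a SEACR peak at 1:100 with TSA. The promoter windows of STAT5A and STAT5B overlap. EPOR, the erythropoietin receptor, had 12 fragments at 1:50 without TSA and 6 with TSA and no peak at 1:100 by either caller, but lacked a SEACR peak at 1:50 with TSA and so was not among the 91.

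The enzymes that write and erase the mark were also compared. Of 11 histone deacetylase genes, 2 were at both and 5 (45.5%) only at 1:50 by MACS2 without TSA, beside 20.2% of all protein-coding promoters, and of 12 histone acetyltransferase genes 5 were at both and 4 (33.3%) only at 1:50. With TSA the deacetylases gave 1 (9.09%) only at 1:50 and 2 (18.2%) only at 1:100 by MACS2, and the acetyltransferases none and 5 (41.7%). Over all protein-coding promoters the shares were 2.57% and 10.1%. SEACR with TSA gave the other order, with 5 (45.5%) deacetylases only at 1:50 and 0 only at 1:100. Of the acetyltransferases it gave 3 (25%) and 2 (16.7%), beside 7.72% and 3.8% of all promoters. HDAC1 had 14 fragments at 1:50 without TSA and no MACS2 peak in the other 3 libraries. HDAC7 was the single list gene among the 91, with 17 and 6 fragments at its outermost start, but at its canonical start, 13229 bp away, it was in 2 of 4 lists at 1:50 and 3 of 4 at 1:100. By canonical starts 4 deacetylase genes were at both and 4 (HDAC1, HDAC4, HDAC5 and HDAC11) only at 1:50 without TSA.

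Of 13 genes of iron handling, 5 were at both and 4 (30.8%, beside 20.2% of all promoters) only at 1:50 by MACS2 without TSA, TFRC among them with 13 fragments, and with TSA 5 were at both and 2 only at 1:100, TFRC among them with 5 fragments. Of 18 red cell membrane genes, 6 were at both, 4 (22.2%) only at 1:50 and 1 only at 1:100 without TSA, and of 14 megakaryocyte genes 2 were at both and 2 (14.3%) only at 1:50, beside 20.2% of all promoters. With TSA MACS2 gave 1 (5.56%) red cell membrane gene only at 1:50 and 3 (16.7%) only at 1:100. For megakaryocyte genes it gave none and 2 (14.3%), beside 2.57% and 10.1% of all promoters. SEACR with TSA gave 4 (22.2%) and 0 red cell membrane genes and no megakaryocyte gene, beside 7.72% and 3.8%. ITGA2B, the platelet integrin αIIb, had 13 fragments at 1:50 without TSA and no peak in the other libraries. The 20.2% counts promoters without a peak too. Of the promoters MACS2 called at 1:50 without TSA, 4080 of 7607 were only at 1:50. The count was 4 of 9 for iron handling, 4 of 10 for red cell membrane and 2 of 4 for megakaryocyte genes. It was 10 of 14 for replication, 6 of 10 for MYC, 5 of 7 for deacetylases and 5 of 8 for globins. Acetyltransferases had 4 of 9, JAK-STAT and BCR-ABL 3 of 15, erythroid factors 3 of 13 and heme synthesis 0 of 9.

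**Figure D3:**
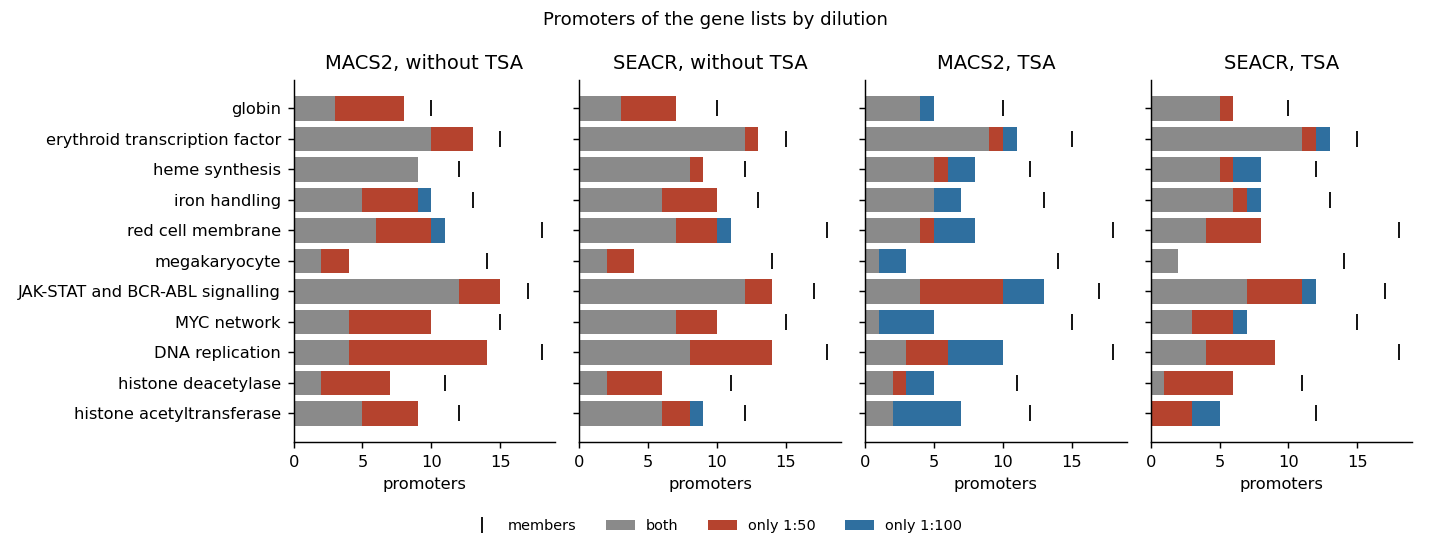
Number of promoters in each gene list (horizontal) called at both dilutions (gray), only at 1:50 (red) and only at 1:100 (blue) for each caller and pair, with a vertical tick at the number of members. Without TSA the red bars exceed the blue in every list with any difference, as they do over all promoters (4080 against 125 by MACS2), and with TSA MACS2 shows more blue than red in most lists.

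Of 10 globin genes, 3 were called at both dilutions and 5 (50%, beside 20.2% of all promoters) only at 1:50 by MACS2 without TSA, and 4 at both, none only at 1:50 and 1 (10%, beside 10.1%) only at 1:100 with TSA. HBG1, the fetal γ-globin gene, had 25, 18, 7 and 10 fragments in the order given above and was in all 8 lists. HBG2 and HBE1 counted as only at 1:50 through outermost starts 250824 and 235707 bp from their canonical starts. At its canonical start HBG2 had 26, 19, 10 and 9 fragments and HBE1 had no peak, and by canonical starts 4 globin genes were at both and 3 (HBA2, HBZ and HBD) only at 1:50. HBA1 and HBA2, like HBG1 and HBG2, are near-identical copies, so reads can be placed in either. HBB, the adult β-globin gene, had no promoter peak in any list.

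The β-globin locus shows the gain region by region. Within 50 kb of the HBG1 start (chr11:5271087, minus strand), MACS2 without TSA called 4 regions at both dilutions, 19 only at 1:50 and none only at 1:100. Over all MACS2 regions without TSA, 69.6% were only at 1:50 and 3.76% only at 1:100. The 4 shared regions were the promoters of HBG1 and HBG2 and 2 distal regions at -25969 and -34874 bp from the HBG1 start, where negative is upstream, with 15 to 26 fragments at 1:50. Those upstream regions lie where the locus control region of the β-globin genes is. Of the 19, 12 were distal and the counts were 7 to 18 fragments, and 12 of the 19 were in all 6 benchmark libraries and 1 in none. All but 2 of the distal ones stood between -24596 and -48178 bp, among and beyond the shared regions, such as the one at -30979 bp with 13 fragments and the one at -37660 bp with 12.

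With TSA the same locus gave 3 regions at both, 3 only at 1:50 (beside 22.7% of all MACS2 regions) and 4 only at 1:100 (beside 50.5%). All 3 regions only at 1:50 were distal, with 6 to 9 fragments, at -25930, -28855 and -30254 bp. The region at -25930 bp, with 9 fragments, was one of the 2 upstream regions shared without TSA, so it did not add a place to the locus. The 4 only at 1:100 had 4 to 6 fragments, and 2 of them were parts of the HBG1 and HBG2 promoters that the 1:50 list covered elsewhere.

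**Figure D4:**
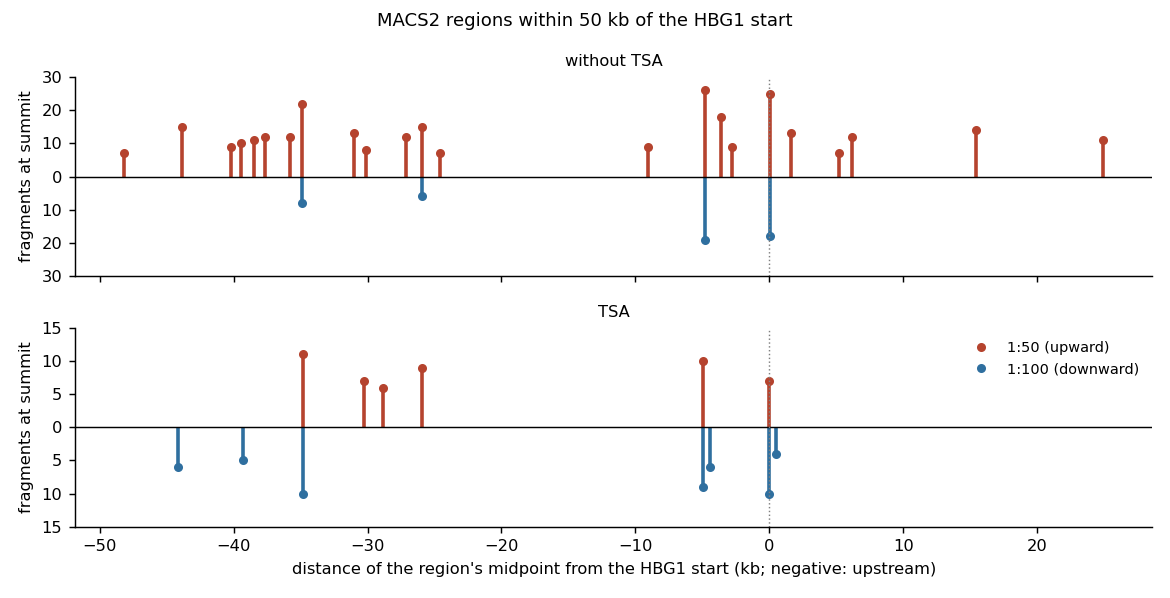
Fragments at the summit (vertical) of each MACS2 region within 50 kb of the HBG1 start by the distance of its midpoint from that start (horizontal, kb, negative upstream), with 1:50 drawn upward in red and 1:100 downward in blue. Without TSA 23 regions point upward and 4 of them have a downward partner; with TSA 6 point upward and 7 downward.

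Around TAL1, MACS2 without TSA called 2 regions at both and 10 only at 1:50, 9 of them distal, but 1 of the 10 was in all 6 benchmark libraries. With TSA the counts were 4 at both, 1 only at 1:50 and 4 only at 1:100. Around COX4I2 there were 3 at both and 17 only at 1:50 without TSA, of which 13 were in all 6 benchmark libraries, and with TSA 4 at both, 5 only at 1:50 and 6 only at 1:100. Over all MACS2 regions, 69.6% were only at 1:50 without TSA. With TSA 22.7% were only at 1:50 and 50.5% only at 1:100.

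Whether the regions seen at a single dilution recur in other libraries was read from the 6 benchmark H3K27ac libraries without TSA, 2 each with ab177178 and ab4729 at 1:100 and 2 with Diagenode C15410196 at 1:50, all with 15 PCR cycles and SDS. These had 21317 to 34897 MACS2 peaks and a background of 0.375 to 0.680 fragments per base, all above the 4 libraries compared. Of the regions at both dilutions without TSA, a mean of 94.1% by MACS2 had a benchmark peak. Of those only at 1:50, 74.3% did, and of those only at 1:100, 60.8%, a difference of 13.5 percentage points ± 3.73 (SD, n = 6), higher in 6 of 6 libraries. In the exact two-sided sign-flip permutation test over the 6 libraries the p was 0.03125, the smallest that 6 libraries allow, and 0.0417 after Benjamini-Hochberg adjustment over the 4 comparisons. SEACR gave 72.8% and 53.2%, a difference of 19.7 ± 3 (n = 6), higher in 6 of 6, with the same adjusted p of 0.0417 in that permutation test. Any overlap of at least 1 bp counted, and the regions differed in width. The median widths only at 1:50 and only at 1:100 were 437 and 264 bp by MACS2 and 1950 and 1056 bp by SEACR. The part of width in the difference was not tested. Each p covers the spread between the libraries read, not between libraries of 1 dilution. The 6 libraries are 2 replicates for each antibody and all read the same regions, so they are not independent units.

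With TSA the difference did not have that sign. By MACS2, 85.4% of the regions only at 1:50 and 91.2% of those only at 1:100 had a benchmark peak, a difference of -5.87 ± 3.14 (n = 6), higher at 1:50 in 0 of 6 libraries (adjusted p = 0.0417, exact permutation test). By SEACR the shares were 86.7% and 87.1%, and the difference of -0.389 ± 2.58 (n = 6), higher in 3 of 6, had p = 0.875 in the exact permutation test. The median widths only at 1:50 and only at 1:100 were here 239 and 265 bp by MACS2 and 968 and 1038 bp by SEACR. Their part in the difference was not tested. The difference without TSA exceeded that with TSA by 19.4 ± 5.57 points for MACS2 and 20 ± 1.75 for SEACR (SD, n = 6), in 6 of 6 libraries each, but each side rests on 1 library for a dilution, so whether treatment changes the effect of dilution was not tested. With MACS2 lists of equal length, the difference without TSA was 1.03 points with p = 0.1875 in the exact permutation test. With fragments scaled to the shallower background it was 4.24, and with SEACR lists of equal length it was 17.5. Both of these had p = 0.03125 in the exact permutation test.

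The direction without TSA was the same with each antibody of the benchmark. Without TSA by MACS2 the share of regions only at 1:50 with a peak was 79.1% and 79.0% in the ab177178 libraries, 58.9% and 76.5% in the ab4729 libraries and 72.4% and 79.9% in the Diagenode libraries, and that of regions only at 1:100 was 66.4% and 66.1%, 51.6% and 63.0%, and 56.0% and 61.6%. Of the 15316 regions only at 1:50, 53.7% had a peak in all 6 libraries and 13.4% in none, against 42.5% and 26.7% of the 828 only at 1:100. H3K27me3 peaks of the benchmark overlapped 3.55% to 5.28% of the regions only at 1:50 and 15.5% to 19.3% of those only at 1:100, beside 8.6% to 13.7% of those at both, in the MACS2 lists without TSA. With TSA the shares were 4.82% to 6.67% only at 1:50 and 3.7% to 6.99% only at 1:100.

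**Figure D5:**
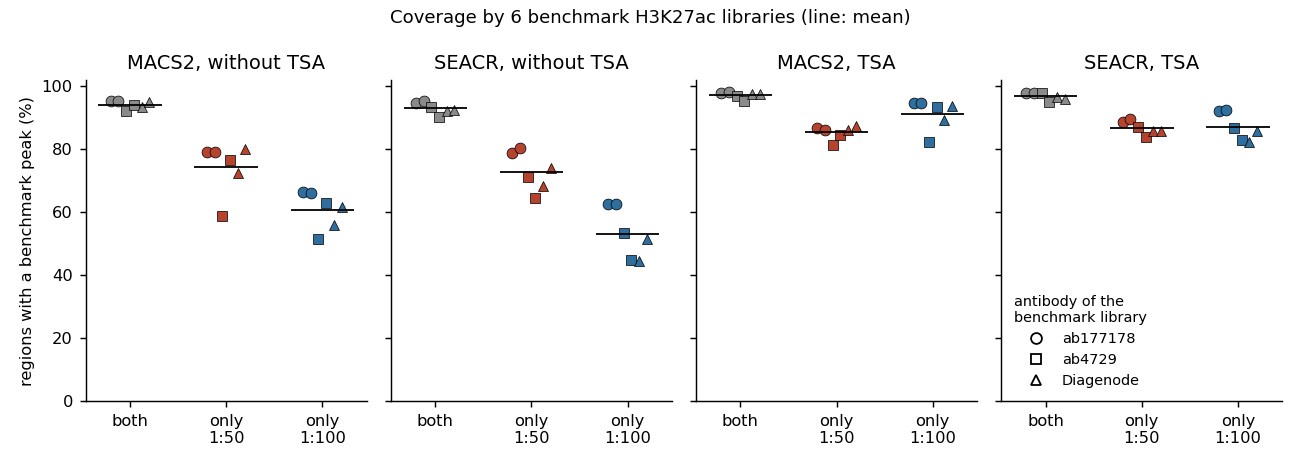
Percentage of regions (vertical) with a peak in each of the 6 benchmark H3K27ac libraries, for regions at both dilutions, only at 1:50 and only at 1:100, by caller and pair, with the marker showing the antibody and the line the mean. Without TSA every library lies higher for regions only at 1:50 than for those only at 1:100 (means 74.3% and 60.8% by MACS2); with TSA the order is reversed for MACS2 (85.4% and 91.2%), and the SEACR means are 86.7% and 87.1%.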

How the data were processed

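The 4 Diagenode libraries were grouped by the dilution and treatment in their labels. Per the paper and the processing notes, the authors' steps were trimming (Trim Galore 0.6.6), alignment to hg19 (Bowtie2 2.2.9), duplicate removal (Picard 2.6.0), file handling (SAMtools 1.3.1, bedtools 2.25.0) and peak calling on each library alone by MACS2, with a fixed genome-wide background, and by SEACR, whose mode for the lists without TSA was not settled here. In the deposited MACS2 lists the authors give a score, the fold ratio of the pileup over the background with 1 added to each, the -log10 p and the -log10 q of each peak. In the deposited SEACR lists the authors give the summed and the highest coverage signal. Fragments at a summit and the background were recovered from the fold, with 99.98% to 100% of values whole within 0.05. No total of reads was used.

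Lists of a pair were merged by an overlap of at least 1 bp and placed against the GENCODE annotation on GRCh37 with 20163 protein-coding genes. Python (3.11.15), pandas (2.3.3), SciPy (1.17.1) and bedtools (2.31.1) were used, and the scripts were tested on simulated data. Named genes are the 15 promoters (with ties, and genes sharing their peak) and 10 distal regions of highest lower fold at 1:50, up to 5 of each only at 1:100, members of 17 gene lists and the control genes of the study; exceptions are marked. Members, lists and tests were chosen with earlier results of these data known. Intervals are exact (Clopper-Pearson). Blacklisted regions were not removed. A few genes that the rule names are not reported here.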

Additional observations from a re-analysis of the deposited data

Results flagged for a closer look

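In 12 groups of 6 benchmark values (the coverage of each class of region by caller and pair), 1 had a value far from the others: of the MACS2 regions only at 1:50 without TSA, 58.9% had a peak in ab4729 replicate 1, against 72.4% to 79.9% in the other 5 libraries. Chance flags about 1 in 20 such groups. That library had the fewest MACS2 peaks of the benchmark, 21317, and the lowest background, 0.375 fragments per base, and their part in the value was not tested.

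The difference in benchmark coverage between regions only at 1:50 and only at 1:100 was not the same in the pairs. Without TSA it exceeded that with TSA by 19.4 percentage points for MACS2 and by 20 for SEACR, in 6 of 6 libraries each. The log2 ratio of MACS2 peak numbers also had opposite signs, 1.47 without TSA and -0.631 with TSA, and with 1 library for each condition neither difference was tested as an effect of treatment.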

How the results depend on the processing

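Of 122 alternatives for 23 results, 55 kept the call or moved it by less than counting error or the 1.5-fold limit, 44 moved it further, 19 lost the threshold, 1 gained it and 3 turned the sign. At equal list length, the regions only at 1:50 and only at 1:100 by MACS2 became 3331 and 2387 without TSA and 2778 only at 1:100 with TSA, and by SEACR 2419 and 1730 without TSA and 1816 only at 1:50 with TSA; promoters became 40 and 26. With scaled fragments, added after the data were seen, the MACS2 counts were 5078 and 1860 without TSA and the promoters 52. At a -log10 q of at least 10, regions only at 1:100 were 339 and, with TSA, 1728, and the log2 ratios 1.93 and, turned in sign, 0.12. Merging within 1000 bp gave 537 regions only at 1:100 without TSA, 1182 only at 1:50 with TSA and log2 ratios of 1.31 (MACS2, without TSA) and 0.425 (SEACR, TSA). The top 50% of SEACR peaks by signal gave 2840 only at 1:50 without TSA and 1626 and 646 with TSA, and signal above the lower median gave log2 ratios of 1.59 and 0.247. By base pairs covered the log2 ratios were 2.13 and -0.557 for MACS2 and 1.41 for SEACR without TSA. The promoter share of regions only at 1:50 was 51.2%, 58.7%, 55.2% and 61.6% with a window of 3000 bp (MACS2 without and with TSA, SEACR without and with TSA), 33.8%, 40.5%, 40.1% and 45.3% with protein-coding starts alone, and 47.2% (MACS2) and 57.4% (SEACR) without TSA at equal length. Promoters only at 1:50 and only at 1:100 were 235 and 17 by MACS2 alone, 447 and 20 by SEACR alone, 2219 and 65 in the pair without TSA and 395 and 590 in the TSA pair. Coverage differences lost the threshold at equal length (1.03, MACS2 without TSA) and in each set of 5 benchmark libraries, where an exact permutation test cannot go below p = 0.0625; they ranged over 12.6 to 14.7 and -6.80 to -5.28 (MACS2) and 18.8 to 20.3 and -1.15 to 0.229 (SEACR), without and with TSA, and the last turned in sign to 0.229 and 0.159 without ab177178 replicate 1 or 2. Read with the peak lists of the other caller, the SEACR difference with TSA was -3.57 with p = 0.03125 in the exact permutation test. The cause was not tested, apart from the fewer peaks or libraries that these alternatives keep by construction. No paired analysis was possible because the labels give these libraries no replicate number; they were matched by treatment, in 2 pairs. The lowest peaks of the lists hold 4 to 6 fragments, and lower signal could not be seen.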
